A study of Mus musculus with 10 samples.

Results

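Signaling by transforming growth factor beta (TGF-beta), activins and bone morphogenetic proteins (BMPs) was followed through 45 genes in mouse preadipocytes exposed to bisphenol S. The genes were chosen by name and role, with earlier results of these data known. They are ligands, receptors, secreted antagonists, latent TGF-beta binding proteins, SMAD proteins and target genes of the pathway. They were 45 of the 32903 genes that could be named in the deposited table. The cells were preadipocytes of iSAT, the subcutaneous fat pad of the groin, from male wild-type C57 BL6 mice. One group of 5 libraries came from cells given the solvent DMSO, and the other group of 5 from cells given 2.5 µM bisphenol S (BPS), an industrial chemical used in place of bisphenol A, in DMSO. Both groups shared genotype, sex and fat depot, the length of exposure was not given in the sources used here, and each group was 1 dose of BPS or none.

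TGF-beta family ligands are secreted dimers that bring type I and type II receptor kinases together on the cell surface. TGF-betas and activins then lead to phosphorylation of SMAD2 and SMAD3, and BMPs to phosphorylation of SMAD1, SMAD5 and SMAD9, and each set enters the nucleus with SMAD4. Secreted binding proteins such as follistatin and gremlin hold ligands away from receptors, and latent TGF-beta binding proteins store TGF-beta in the matrix. In fat, TGF-beta and activin A are known to hold preadipocytes back from differentiation, while several BMPs favour commitment to the adipocyte lineage. Most of these steps run on protein release and phosphorylation, which RNA levels do not measure.

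The libraries held 37920689 to 42717227 estimated counts each, with 38200573 to 42314795 in the DMSO group and 37920689 to 42717227 in the BPS group. The labels do not say whether the 5 replicates of a group were separate animals or dishes, so p-values measure the spread between these libraries, which may be technical. The library numbers run through the DMSO group first and the BPS group after it, so any batch in that order cannot be told apart from the treatment. The preadipocyte label was read against markers: 9 preadipocyte markers summed to 3070 to 3100 CPM (counts scaled to a common library size) in DMSO and 3130 to 3180 CPM in BPS. Among the 9, 4 log2 fold changes were above 0 and 5 below: Cd34 and Thy1 were called higher in BPS, and Pdgfra (903.8 ± 14.3 and 863.3 ± 22.9 CPM, log2 fold change -0.066) was called lower by DESeq2 and not by edgeR. The sums of 6 adipocyte markers were 3.62 to 4.18 CPM in DMSO and 4.59 to 5.28 CPM in BPS, with Lep at 0 and Fabp4 called higher. Fabp4 made up most of these sums, at 3.81 ± 0.198 CPM in DMSO and 4.79 ± 0.254 in BPS. Adipoq, Plin1, Cidec and Retn had at most 5 counts a library and were not tested. Macrophage markers summed to 9.1 to 14.7 and 9.98 to 17.3 CPM with Csf1r at 0, and endothelial markers to 17.3 to 22.7 and 16.7 to 22.5 CPM. Mural cell markers summed to 20.8 to 23.9 CPM in DMSO and 22.4 to 24.8 CPM in BPS, and mesothelial markers to 9.06 to 11 and 11 to 12.9 CPM, with Msln and Upk3b at 0. Of the 2 mesothelial markers with enough counts to test, Krt19 was called higher (log2 fold change 0.27) and Wt1 was not called (0.849 ± 0.120 and 0.569 ± 0.188 CPM, log2 fold change -0.59). The part of these cell types in the results that follow was not tested.

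A small set of pathway genes differed between the BPS and DMSO libraries by modest amounts. Of the 42 members with enough counts to test, 4 rose (Inhba, Fst, Ltbp4 and Smad2) and 2 fell (Tgfb2 and Tgfbr3) at a threshold of 0.05 on p-values of the edgeR quasi-likelihood test, adjusted by Benjamini-Hochberg over 14597 genes. That was 14.3% of the tested members, where 4.88% of all genes tested were called, 3.06% higher and 1.82% lower. The members were on the whole well expressed, and among genes with a mean of at least 10 CPM the same shares were 17.1% (6 of 35 members) and 6.71%. No library of one group reached into the range of the other for 9 members, or 21.4%, against 6.9% of all genes (4.19% higher and 2.71% lower). The members had no common direction: 22 fold changes were above 0 and 20 below, with a median log2 fold change of 0.011, where all genes had a median of 0.0. In bulk RNA, fewer cells that express a gene and less of its RNA per cell cannot be told apart.

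**Figure D1:**
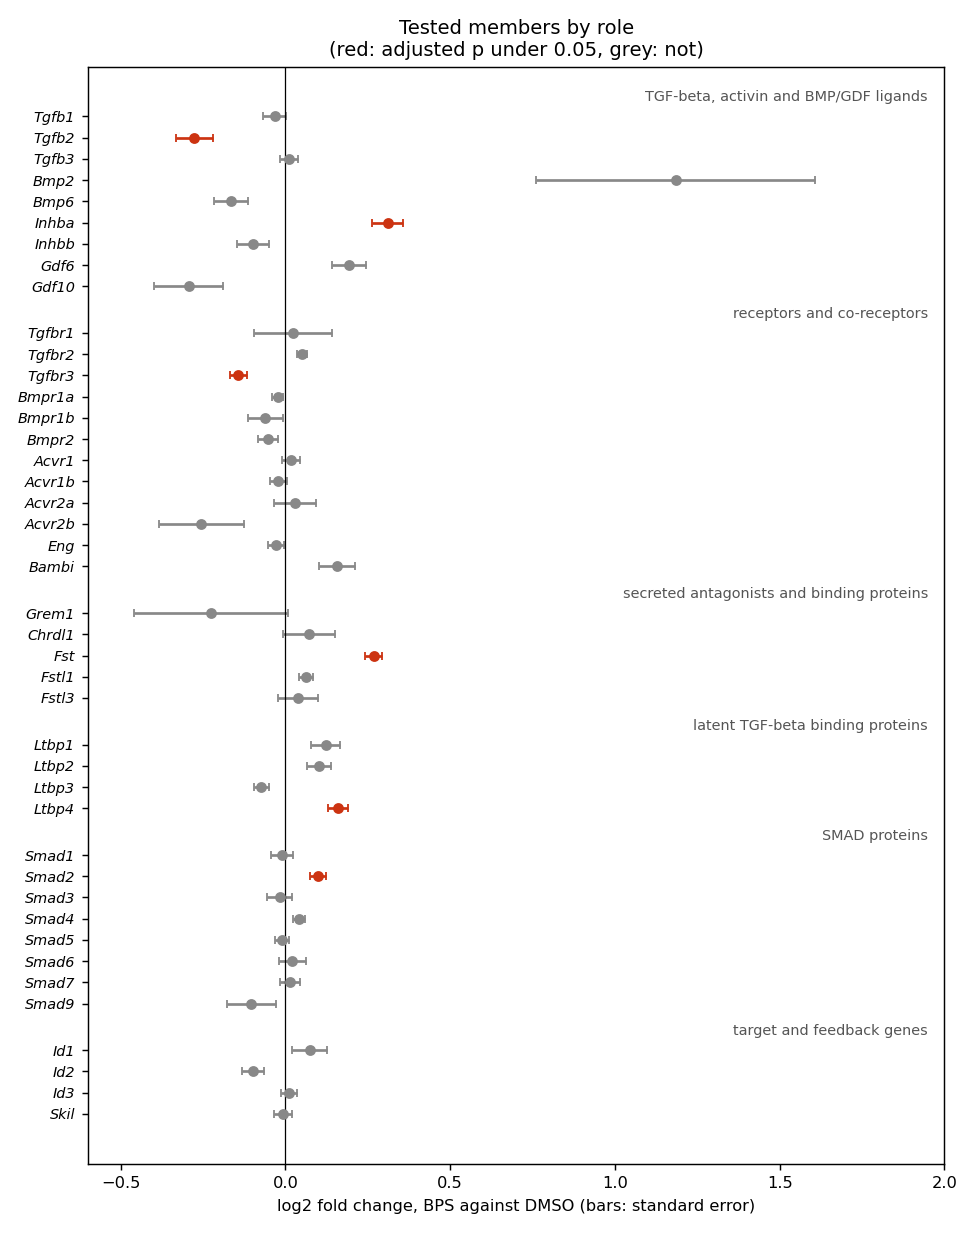
Log2 fold change of BPS against DMSO (x axis) with its standard error for each of the 42 tested members, ordered by role, with 5 libraries in each group. Red points passed an adjusted p of 0.05 by edgeR. The 6 red points lie on both sides of 0, and the SMAD proteins and target genes lie close to 0.

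Levels per transcript length, as CPM per kilobase of the longest annotated transcript, ran over more than 4 orders of magnitude. Fstl1, which encodes a secreted glycoprotein related to follistatin, led with 649.4 CPM per kb in DMSO. Id3, an inhibitor of DNA binding that is a classic BMP target, followed at 128.6 CPM per kb, and the matrix protein genes Ltbp2 and Ltbp3 came next at 94.6 and 64.7 CPM per kb. Tgfbr2, the type II TGF-beta receptor, was at 56.7 CPM per kb, Smad4 at 45.4 and the co-receptor Tgfbr3 at 38.9. The highest ligand was Inhba at 38.4 CPM per kb in DMSO and 47.6 in BPS, next to Tgfb1 at 35.3 and Tgfb3 at 31.8 in DMSO. At the low end stood Bmp6 at 3.67, Tgfb2 at 2.44, Bambi at 2.39 and Bmp2 at 0.0832 CPM per kb. The lengths came from an annotation that may differ from the one the authors quantified against, so the order is approximate: with the length of the transcript paired by its accession, Inhba would stand at 160.6 CPM per kb.

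**Figure D2:**
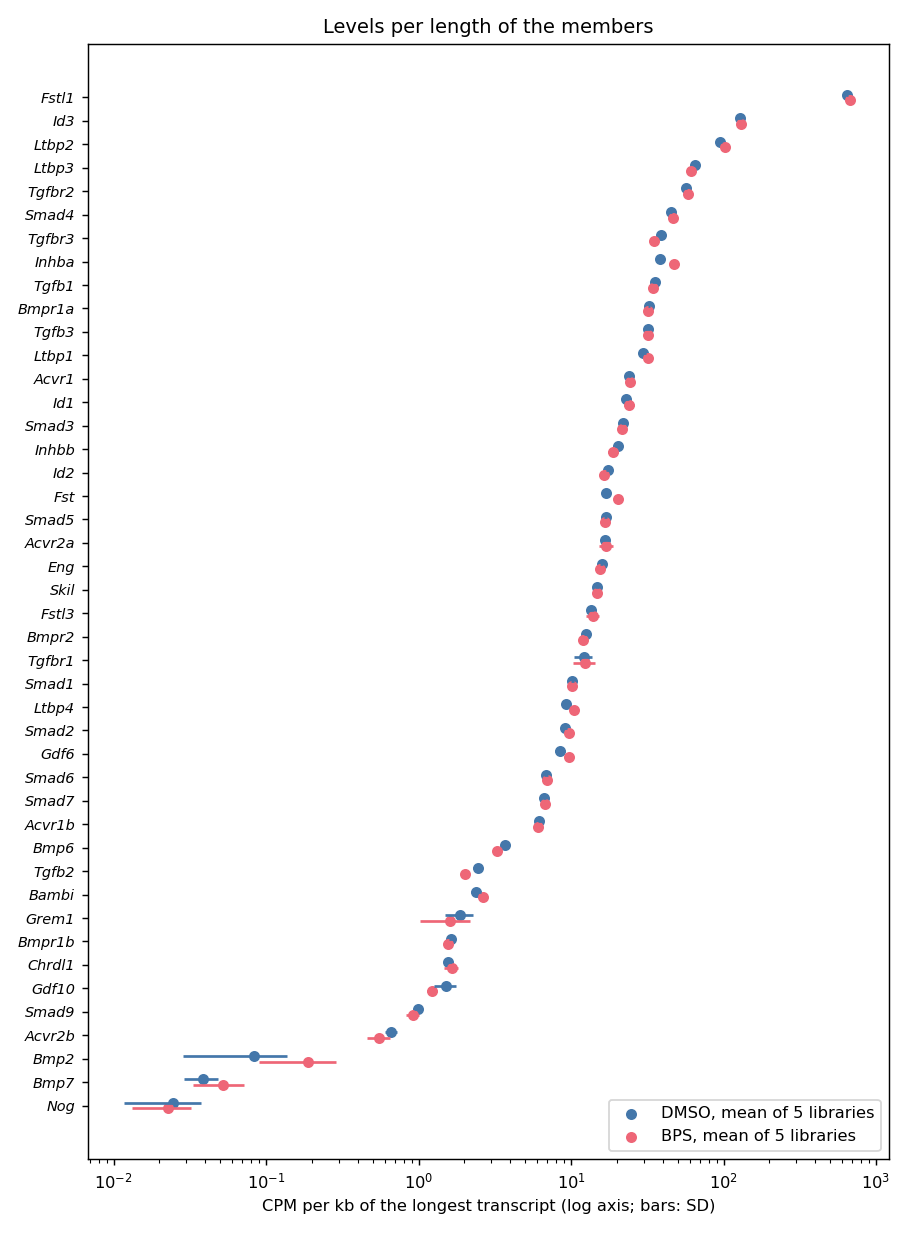
Mean level of 44 members as CPM per kilobase of the longest transcript (x axis, log scale) in 5 DMSO libraries (blue) and 5 BPS libraries (red), with SD as bars, ordered by the DMSO level. Fstl1 is highest at 649.4 in DMSO and Nog lowest at 0.0246, and Bmp4 is not drawn because it was at 0.

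Among the ligands, Inhba rose and Tgfb2 fell, and 7 of the 9 tested ligands did not pass. Inhba encodes the beta A subunit, and a dimer of that subunit is activin A. Its levels were 266, 243.2, 236.3, 229.7 and 252.3 CPM in DMSO replicates 1 to 5, and 311.7, 323.7, 274.3, 313.3 and 299.1 CPM in BPS replicates 1 to 5. Every BPS library lay above every DMSO library, and BPS replicate 3 was the lowest of its group. The means were 245.5 ± 14.2 CPM (SD, n = 5) in DMSO and 304.4 ± 19.0 CPM in BPS, with a log2 fold change of 0.31 ± 0.047 (SE, a fold of 1.24) and an edgeR adjusted p of 0.00346. Inhbb, the beta B subunit gene, was at 86.1 ± 3.56 CPM in DMSO and 80.5 ± 6.196 in BPS and did not pass (log2 fold change -0.098, adjusted p = 0.312 by edgeR). The ratio of Inhba to Inhbb CPM, looked at after the values were seen, was 2.59 to 3.05 in DMSO libraries and 3.5 to 4.05 in BPS libraries, with no overlap.

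Tgfb2 encodes 1 of the 3 TGF-beta ligands. Its levels were 12.9, 11.5, 12.1, 13.6 and 12.4 CPM in DMSO replicates 1 to 5 and 10.5, 10.7, 9.78, 9.61 and 10.9 CPM in BPS replicates 1 to 5. All BPS libraries were below all DMSO libraries. The means were 12.5 ± 0.803 CPM (SD, n = 5) and 10.3 ± 0.577 CPM, with a log2 fold change of -0.28 ± 0.056 (SE) and an edgeR adjusted p of 0.0167, on 341 to 517 counts a library. Tgfb1, at 90.9 ± 3.43 CPM in DMSO and 88.8 ± 4.12 in BPS, and Tgfb3, at 107.6 ± 4.28 and 108.4 ± 2.02 CPM, did not pass (log2 fold changes -0.032 and 0.010, adjusted p = 0.691 and 0.899 by edgeR). Tgfb2 made up 5.92 ± 0.309% of the summed CPM of these 3 ligands in DMSO and 4.97 ± 0.273% in BPS, a share chosen after the values were seen. An antisense gene, Gm29491, shares 2.14% of the Tgfb2 exon bases, and whether the authors' counting used strand was not given in the sources used here. The 250 bases just before the annotated start of the transcript that held most Tgfb2 counts are shown because Tgfb2 is the ligand that fell. They run on the minus strand of GRCm38.p6 at chr1:186705990-186706239 (RefSeq), and 167 of them overlap an exon of Gm29491 on the other strand. None of the 5 motifs searched, listed with the Ltbp4 sequence further on, was found there.
Tgfb2: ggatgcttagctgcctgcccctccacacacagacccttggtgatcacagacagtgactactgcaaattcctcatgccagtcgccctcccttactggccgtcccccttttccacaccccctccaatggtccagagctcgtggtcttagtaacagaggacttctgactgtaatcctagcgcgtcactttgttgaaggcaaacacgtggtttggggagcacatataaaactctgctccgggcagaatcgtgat

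BMP and GDF ligands gave no call. Bmp6, a BMP known for its role in iron balance and bone, was at 12.3, 13.2, 13.8, 13.5 and 13.1 CPM in DMSO replicates 1 to 5 and at 10.5, 12.2, 12.05, 12.01 and 12.07 CPM in BPS replicates 1 to 5. The groups did not overlap and BPS replicate 1 was the lowest library, but the log2 fold change of -0.17 (SE 0.051) did not pass (adjusted p = 0.0907 by edgeR). The opposite-strand gene Txndc5 shares 5.74% of the Bmp6 exon bases and was at 686.6 CPM in DMSO and 700.2 in BPS. Gdf6, a ligand of joint and skeletal patterning, was at 30.9, 29.2, 31.7, 26.5 and 31.9 CPM in DMSO replicates 1 to 5 and at 32.4, 37.1, 33.6, 34.8 and 33.7 CPM in BPS replicates 1 to 5. The BPS libraries were all higher, and the log2 fold change of 0.19 (SE 0.052) narrowly missed the threshold (adjusted p = 0.0598 by edgeR). It was called with upper-quartile scaling (adjusted p = 0.0474 by edgeR), with DESeq2 (adjusted p = 0.0229) and without BPS replicate 1 (adjusted p = 0.0497 by edgeR).

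Bmp2, a ligand of the commitment of mesenchymal cells to bone and fat, had the largest fitted change of the tested members and was barely present. It was at 0.218, 0.205, 0.203, 0.211 and 0.642 CPM in DMSO replicates 1 to 5 and at 0.401, 1.21, 0.840, 0.451 and 0.443 CPM in BPS replicates 1 to 5, on 8 to 42 counts a library. DMSO replicate 5 stood above 3 of the BPS libraries, and the log2 fold change of 1.18 (SE 0.42) did not pass (adjusted p = 0.147 by edgeR). Without DMSO replicate 5 it was called (adjusted p = 0.0415 by edgeR). Gdf10, a distant BMP relative, was at 7.86 ± 1.29 CPM and 6.42 ± 0.512 CPM (log2 fold change -0.29, adjusted p = 0.148 by edgeR). Bmp4 and Bmp7 were not tested: Bmp4 was listed at 0 in all 10 libraries, where a count of 0 allows up to 3 counts a library, and Bmp7 had 4 to 10 counts.

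Of the 12 receptors and co-receptors, 1 changed. Tgfbr3 encodes betaglycan, a co-receptor that presents TGF-beta2 to the signaling receptors and also binds inhibins. It was at 239.3, 240.3, 243.5, 238.2 and 223.7 CPM in DMSO replicates 1 to 5 and at 208, 211.8, 216.1, 214.2 and 222.9 CPM in BPS replicates 1 to 5. The groups were separate but nearly touched, because DMSO replicate 5 was well below the other DMSO libraries and BPS replicate 5 was the highest of its group. The means were 237.0 ± 7.70 CPM (SD, n = 5) and 214.6 ± 5.51 CPM, with a log2 fold change of -0.14 ± 0.025 (SE) and an edgeR adjusted p of 0.00826. Another annotated gene on the same strand, Gm43422, shares 4.54% of the Tgfbr3 exon bases.

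The signaling TGF-beta receptors did not pass. Tgfbr2 was at 459.1 ± 9.60 CPM in DMSO and 475.6 ± 4.32 in BPS (log2 fold change 0.051, adjusted p = 0.103 by edgeR, and 0.0336 with DESeq2). Tgfbr1, the type I receptor, was at 69.5 ± 9.29 and 70.7 ± 11.8 CPM, and its 95% interval of the log2 fold change, -0.24 to 0.28, was wide. The ratio of Tgfbr3 to Tgfbr2 CPM, chosen after the values were seen, was 0.500 to 0.527 in DMSO libraries and 0.441 to 0.465 in BPS libraries. The activin and BMP receptors Acvr1, Acvr1b, Acvr2a, Bmpr1a, Bmpr1b and Bmpr2 had log2 fold changes from -0.061 to 0.029, and the TGF-beta co-receptor endoglin (Eng) had -0.028, none past the threshold. Acvr2b, a type II activin receptor at 2.1 ± 0.192 CPM in DMSO and 1.76 ± 0.312 in BPS, had -0.26 (adjusted p = 0.326 by edgeR). Bambi encodes a receptor-like protein without a kinase that dampens the signal. Its levels were 12.9, 11.8, 10.6, 12.3 and 12.9 CPM in DMSO replicates 1 to 5 and 14.1, 13.5, 13.5, 13.4 and 13.0 CPM in BPS replicates 1 to 5. The highest DMSO library lay just under the lowest BPS library, and the log2 fold change of 0.16 (SE 0.055) did not pass (adjusted p = 0.14 by edgeR).

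Follistatin (Fst), the secreted protein that binds activins almost irreversibly, rose with the smallest p of the members. It was at 49.4, 48.8, 49.3, 51.1 and 49.2 CPM in DMSO replicates 1 to 5 and at 57.7, 62.6, 60.9, 58.2 and 58.8 CPM in BPS replicates 1 to 5. The DMSO libraries lay close together, with DMSO replicate 4 highest, and the BPS libraries all lay well above them. The means were 49.5 ± 0.880 CPM (SD, n = 5) and 59.6 ± 2.07 CPM, with a log2 fold change of 0.27 ± 0.026 (SE) and an edgeR adjusted p of 0.00016. The opposite-strand gene Gm47040 shares 2.51% of the Fst exon bases. Activin subunit and follistatin RNA were thus both higher in BPS, and the ratio of Inhba to Fst CPM, chosen after the values were seen, was 4.96 ± 0.338 in DMSO and 5.11 ± 0.366 in BPS, with overlapping libraries.

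The other 4 tested antagonists and binding proteins did not pass. Fstl1 was at 2461 ± 35.9 CPM and 2568 ± 85.0 CPM (log2 fold change 0.062, adjusted p = 0.138 by edgeR), and it was called without BPS replicate 1 (adjusted p = 0.0157 by edgeR). Fstl3, a follistatin relative, had a log2 fold change of 0.039, and Chrdl1, a chordin-like BMP antagonist, one of 0.072. Grem1, the BMP antagonist gremlin, was at 7.8 ± 1.57 and 6.65 ± 2.44 CPM (log2 fold change -0.23, 95% interval -0.74 to 0.28). Nog, the BMP antagonist noggin, had 1 to 3 counts a library and was not tested.

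**Figure D3:**
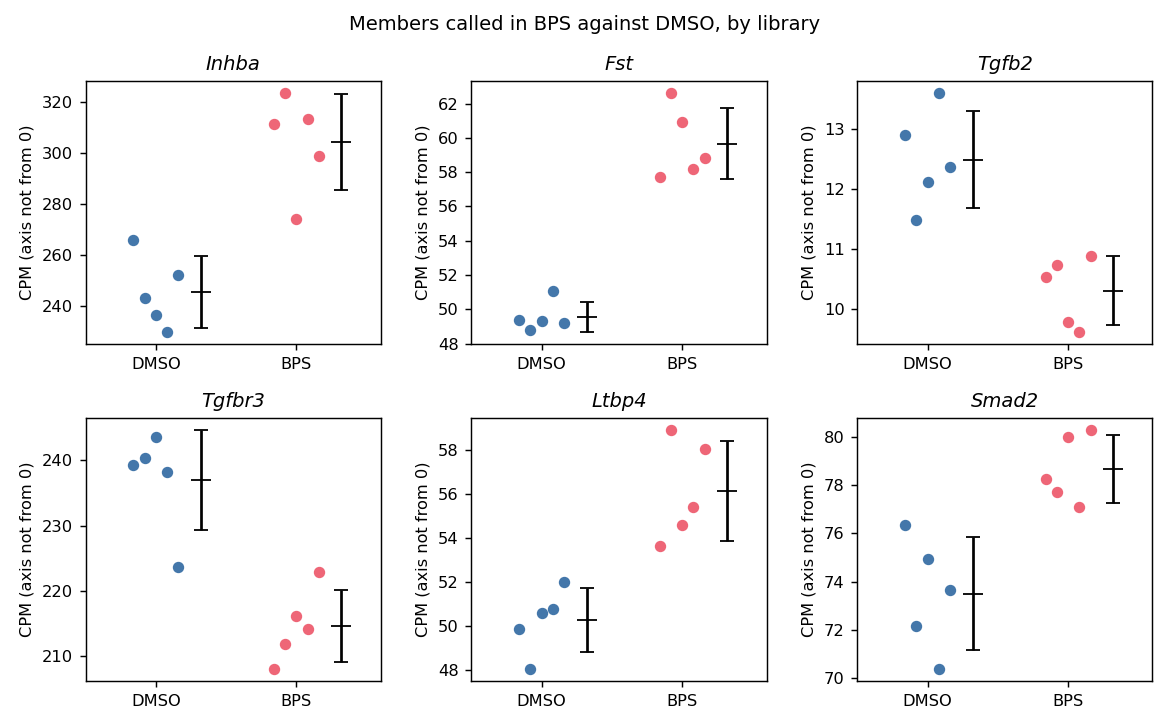
CPM of the 6 called members in each of 5 DMSO libraries (blue) and 5 BPS libraries (red), with mean and SD as bars; the y axes do not start at 0. In every panel the groups are separate, and in Tgfbr3 the nearest libraries are DMSO replicate 5 at 223.7 CPM and BPS replicate 5 at 222.9 CPM.

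All 4 latent TGF-beta binding protein genes were measured and Ltbp4 was called. LTBP4 tethers the latent TGF-beta complex to elastic fibres. Its gene was at 49.9, 48.0, 50.6, 50.8 and 52 CPM in DMSO replicates 1 to 5 and at 53.6, 58.9, 54.6, 55.4 and 58.0 CPM in BPS replicates 1 to 5. Every BPS library was higher than every DMSO library. The means were 50.3 ± 1.46 CPM (SD, n = 5) and 56.1 ± 2.26 CPM, with a log2 fold change of 0.16 ± 0.031 (SE) and an edgeR adjusted p of 0.0144. The call was lost when only transcripts whose accession version matched the reference were summed, where the log2 fold change was 0.26 (adjusted p = 0.401 by edgeR). Ltbp1, which binds latent TGF-beta in fibrillin microfibrils, was at 196.7 ± 9.96 and 214.0 ± 13.7 CPM (log2 fold change 0.12, adjusted p = 0.159 by edgeR). Ltbp2, a relative that does not bind latent TGF-beta, was at 640.2 ± 18.1 and 687.6 ± 39.2 CPM (log2 fold change 0.10, adjusted p = 0.132 by edgeR, and 0.0255 without BPS replicate 1). Ltbp3 pointed the other way, at 370.6 ± 5.37 and 352.4 ± 12.2 CPM (log2 fold change -0.073, adjusted p = 0.0957 by edgeR). It was called with scaling by library size alone (adjusted p = 0.0325 by edgeR), with DESeq2 (adjusted p = 0.0309) and without BPS replicate 2 (adjusted p = 0.0252 by edgeR). The ratio of Ltbp4 to Ltbp3 CPM, chosen after the values were seen, was 0.132 to 0.140 in DMSO libraries and 0.156 to 0.165 in BPS libraries.

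RefSeq promoter windows of GRCm38.p6, of which the 250 bases before a start were read, were matched for 31 of the 45 members (39 windows). They were searched on both strands for the SMAD palindrome GTCTAGAC, the GC box of BMP-activated SMADs GGCGCC, the AP-1 site TGANTCA, the cyclic AMP element TGACGTCA and the EGR site GCGNGGGCG, motifs chosen with results of these data known and not overlapping one another in the windows shown. Of 32851 windows of all genes, 0.167%, 9.59%, 6.75%, 1.55% and 4.7% held them, in that order. In the members the GC box was found for 8 genes (Bmpr1a, Bmpr2, Grem1, Id2, Ltbp4, Smad5, Smad9 and Tgfbr1), the EGR site for 4 (Acvr1b, Ltbp4, Tgfb1 and Tgfbr1), the cyclic AMP element for 1 (Ltbp1) and the other motifs for 0. By window, 23.1% of the members' 39 windows held the GC box, 12.8% the EGR site and 2.56% the cyclic AMP element. The median GC content was 66.4% in the members' windows and 52.4% in all windows. Of the 6 called members, Tgfb2, Inhba and Ltbp4 had windows to search. The Inhba window (chr13:16011601-16011850) did not adjoin the annotated start, at 16014475, of the transcript with nearly all Inhba counts. An Ltbp4 window is shown because Ltbp4 is the one of these 3 with a match. It lies on the minus strand at chr7:27333664-27333913, before the start of a shorter Ltbp4 transcript and in an intron of the longer form, with 79.2% GC. That shorter transcript held 32.2% of Ltbp4 counts in DMSO and 33.4% in BPS, and a predicted transcript held more. The capitals mark the GC box at positions -169 to -164 from the start and EGR matches at -98 to -90 and at -50 to -42. A match describes letters and no binding was measured.
Ltbp4: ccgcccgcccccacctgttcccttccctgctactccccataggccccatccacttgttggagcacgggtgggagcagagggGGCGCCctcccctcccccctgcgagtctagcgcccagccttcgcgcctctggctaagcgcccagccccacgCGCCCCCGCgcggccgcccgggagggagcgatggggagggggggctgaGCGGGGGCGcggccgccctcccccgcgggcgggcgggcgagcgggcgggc

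Of the 8 SMAD genes only Smad2 was called, and the log2 fold changes lay between -0.10 and 0.098. SMAD2 is a signal carrier of TGF-beta and activin receptors. It was at 76.3, 72.2, 75, 70.4 and 73.7 CPM in DMSO replicates 1 to 5 and at 78.2, 77.7, 79.98, 77.1 and 80.3 CPM in BPS replicates 1 to 5. The BPS libraries were all above the DMSO libraries, the nearest being DMSO replicate 1 and BPS replicate 4. The means were 73.5 ± 2.33 CPM (SD, n = 5) and 78.7 ± 1.41 CPM, with a log2 fold change of 0.098 ± 0.024 (SE) and an edgeR adjusted p of 0.0425. This call was lost more often than those of the other 5 members, in 14 of 20 alternatives, with adjusted p from 0.0555 to 0.101 by edgeR on leaving out any 1 library other than DMSO replicate 1. Without DMSO replicate 1 the adjusted p was 0.0329 by edgeR, and with scaling by library size alone 0.078. With exact matching of transcript versions the log2 fold change was 0.33 (adjusted p = 0.247 by edgeR).

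Smad3, the other TGF-beta and activin SMAD, was at 111.4 ± 3.50 and 110.1 ± 6.50 CPM (log2 fold change -0.017, 95% interval -0.10 to 0.065). Smad4, the shared partner, had a log2 fold change of 0.040 (adjusted p = 0.253 by edgeR). The BMP SMADs Smad1, Smad5 and Smad9 had -0.011, -0.010 and -0.10. With exact matching of transcript versions Smad5 turned to 0.62 and was called (adjusted p = 0.0389 by edgeR). The inhibitory SMADs, which are themselves induced by the pathway, were at 20.3 ± 0.659 and 20.6 ± 1.16 CPM for Smad6 (95% interval of the log2 fold change -0.071 to 0.11) and at 28.6 ± 0.693 and 28.9 ± 1.08 CPM for Smad7 (-0.054 to 0.083). None of these 7 passed when transcripts were matched without version.

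None of the 4 target and feedback genes passed by edgeR, DESeq2 or limma-voom, and 1 (25.0%) had an unadjusted p under 0.05 by edgeR, where 18.8% of all genes did. Id1, Id2 and Id3 encode helix-loop-helix proteins that block DNA binding and are induced by BMPs in many cells. Id1 was at 26.7 ± 1.36 CPM in DMSO and 28.1 ± 2.13 in BPS (95% interval of the log2 fold change -0.041 to 0.19). Id2 was at 34.5 ± 1.19 and 32.2 ± 1.19 CPM (-0.17 to -0.026, adjusted p = 0.122 by edgeR), and Id3 at 164.4 ± 4.94 and 165.7 ± 4.06 CPM (-0.041 to 0.064). Skil, a SMAD co-repressor that TGF-beta induces, was at 99.6 ± 2.48 and 99.2 ± 3.91 CPM (-0.069 to 0.054). In this fit the intervals of Id3 and Skil reached no further than 0.069 from 0 on the log2 scale, and they cover only the spread between these libraries. Over the alternative settings the lowest log2 fold change of Skil was -0.15, outside its interval.

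The transcripts behind the called members, tested one by one, gave fewer calls than the genes, where 0.335% of 37588 transcripts tested were called. Nearly all Inhba counts (99.5% in DMSO) lay on 1 transcript, which was called (log2 fold change 0.31, adjusted p = 0.0474 by edgeR). Tgfbr3 had 1 transcript, with an adjusted p of 0.0758 by edgeR. Fst counts were split over 3 transcripts, at 63.0%, 21.7% and 15.3% in DMSO and 63.6%, 19.4% and 17.0% in BPS, with log2 fold changes of 0.28, 0.10 and 0.43, none called. The leading Tgfb2 transcript held 85.6 ± 9.73% of its counts in DMSO and 94.0 ± 4.87% in BPS and had a log2 fold change of -0.14 (adjusted p = 0.91 by edgeR). A second Tgfb2 transcript went from 1.12 ± 1.31 CPM to 0.116 ± 0.158 CPM with wide spread in DMSO. The leading Ltbp4 transcript, a predicted one, held 59.8% and 59.9% of its counts, and the next 32.2% and 33.4%. Smad2 was shared between a transcript with 45.6 ± 9.12% in DMSO and 53.9 ± 4.67% in BPS and a predicted one with 45.1 ± 8.16% and 37.7 ± 3.99%, and their log2 fold changes of 0.34 and -0.16 had opposite signs and were not called.

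Further genes of the pathway were read in the same fit, from 6 lists of 136 genes. Of 111 tested, 14 rose and 2 fell (14.4%), where 4.88% of all genes were called, 3.06% higher and 1.82% lower. Without the genes of the 2 target lists it was 8 of 66 (12.1%). Thrombospondin 1 (Thbs1), a matrix protein that can activate latent TGF-beta, rose from 3071 ± 131 to 3745 ± 125 CPM (log2 fold change 0.29, adjusted p = 0.000303 by edgeR). The BMP antagonist Nbl1 rose by 0.21 on the log2 scale (adjusted p = 0.0186 by edgeR), a call lost without BPS replicate 3 (adjusted p = 0.0501 by edgeR) and with exact matching of transcript versions (0.0586). Of 22 extracellular regulators tested 3 were called, these among them. Of 29 intracellular regulators, Fkbp1a, which holds type I receptors inactive, rose (280.8 ± 1.24 to 301.2 ± 3.46 CPM), and the deubiquitinases Usp11 (32.3 ± 1.56 to 25.8 ± 1.98 CPM) and Usp9x (348.7 ± 3.29 to 332.6 ± 6.84 CPM) fell. Among 9 receptors Acvrl1, a type I receptor for BMP9, rose (log2 fold change 0.10, adjusted p = 0.0275 by edgeR), and among 9 ligands Bmp3 rose from 0.567 to 0.916 CPM (adjusted p = 0.0416 by edgeR). Calls for Bmp3, Acvrl1 and Usp9x were lost in 12 of 18, 8 of 19 and 12 of 19 alternatives. Leaving out any 1 library other than DMSO replicate 4 or BPS replicate 1 ended the Bmp3 call, any 1 other than BPS replicate 5 the Usp9x call, and any 1 DMSO library or BPS replicate 3 the Acvrl1 call (adjusted p = 0.0513 to 0.0961 by edgeR).

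The list of genes known as targets of TGF-beta and SMAD2/3 held more calls. Of its 30 tested genes 8 rose and none fell by edgeR, or 26.7%, where 3.06% of all genes were called higher. Among genes with a mean of at least 10 CPM, 6.71% were called in either direction. The list was chosen with earlier results of these data known, so these shares are no independent comparison. The smooth muscle actin gene Acta2 rose from 1037 ± 29.3 to 1339 ± 41.0 CPM (log2 fold change 0.37, adjusted p = 1.5e-05 by edgeR). The actin-binding genes Tagln and Cnn1 rose by 0.32 and 0.68, the matricellular genes Ccn2 and Postn by 0.31 and 0.15 on the log2 scale. Nuak1, a kinase (0.25), and Cdkn1a, a cell cycle inhibitor (0.15, adjusted p = 0.0497 by edgeR), also rose and are named after their values were seen. Cdkn1a was lost in 13 of 19 alternatives, including each fit without 1 library other than DMSO replicate 4 or BPS replicate 5. Several of these genes are also known targets of SRF and YAP, so the list is not specific to SMADs, and the median over all 30 was 0.063. The collagen genes Col1a1 and Col3a1 and the SMAD feedback gene Pmepa1 (log2 fold change -0.083), all on the list, did not pass. DESeq2 also called Snai1 and Snai2, which edgeR did not (log2 fold changes -0.087 and 0.12 by edgeR). Of the 30 fold changes 21 were above 0 and 9 below. Mural cells also express the contractile genes. All 5 mural markers had log2 fold changes above 0 (0.044 to 0.27, median 0.11), with sums of 20.8 to 23.9 CPM in DMSO and 22.4 to 24.8 CPM in BPS, and 0 of 5 were called by edgeR, DESeq2 or limma-voom or had an unadjusted p under 0.05. Their part in the rise of the contractile genes was not tested. In the list of 15 tested BMP and SMAD1/5 targets none was called by edgeR, DESeq2 or limma-voom, and 4 (26.7%) had an unadjusted p under 0.05 by edgeR, against 18.8% of all genes. The difference between the 2 lists was not tested.

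**Figure D4:**
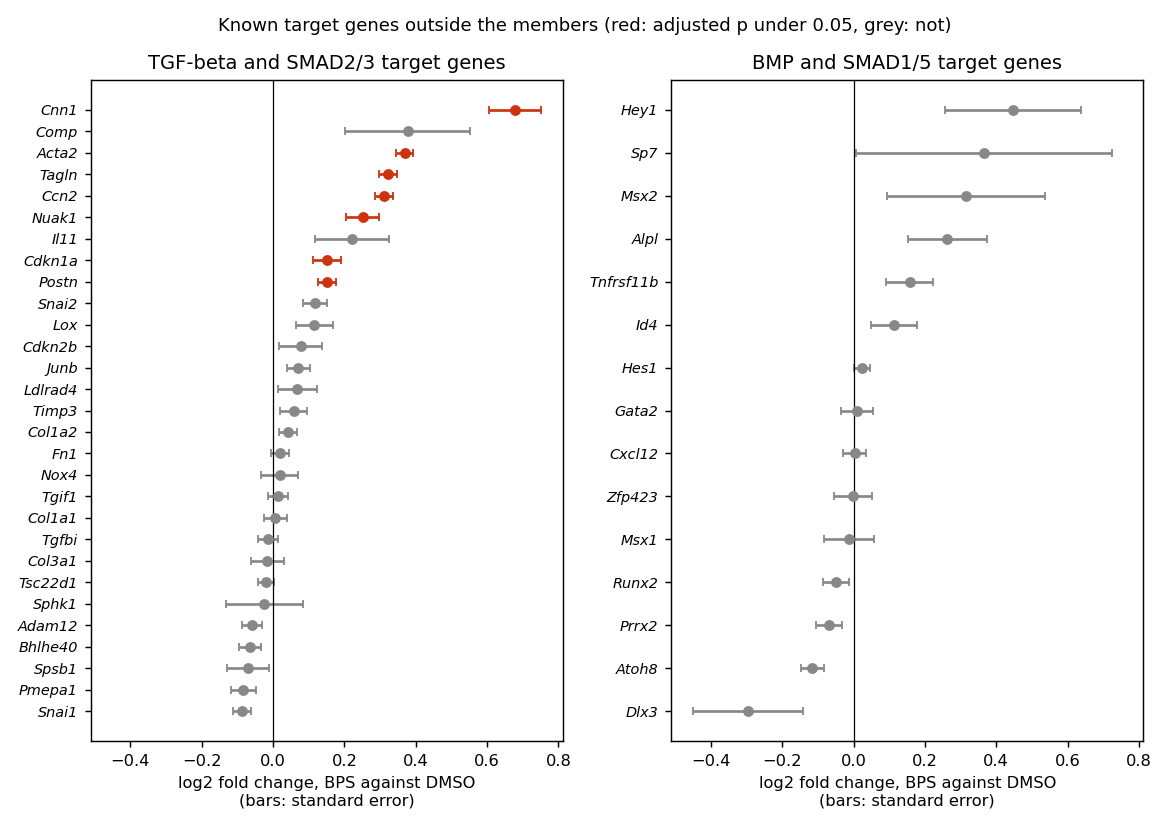
Log2 fold change of BPS against DMSO (x axis) with its standard error for 29 of the 30 tested TGF-beta target genes (left) and 15 tested BMP target genes (right), with 5 libraries in each group. Red points passed an adjusted p of 0.05 by edgeR: 7 on the left, all above 0, and none on the right.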

How the data were processed

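Preadipocyte RNA was sequenced in 10 libraries made with a strand-marking kit, per the labels' protocols. The authors deposited estimated counts per RefSeq transcript, made with kallisto 0.42.4 per the submitters' processing notes. The index, its build and its strand setting are not given in the sources used here. Of 107384 transcripts, 86722 matched a gene of the RefSeq GRCm38.p6 table by accession without version (93.1% of counts). They were summed to 32903 genes, among them all 45 members (130 transcripts), and rounded. CPM used library sizes scaled by TMM factors of 0.9854 to 1.0077.

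The 5 BPS and 5 DMSO libraries were compared with edgeR 4.0.16 (R 4.3.3): filterByExpr, TMM, the quasi-likelihood test and Benjamini-Hochberg adjustment over 14597 genes. A gene was called at an adjusted p under 0.05. The code was tested on simulated data. Standard errors and 95% intervals came from the same fit. Depth was 37920689 to 42717227 counts a library, and replicates differed beyond counting noise, with a chi-square per degree of freedom of 4.14 to 8.79. Alternatives used DESeq2 1.42.0, limma 3.58.1, other scalings, filters and transcript matching, a replicate block, single transcripts, and each library left out in turn.

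The members and lists were chosen with earlier results of these data known. Every library's value is given for members that were called or whose groups did not overlap, and for Bmp2, which was added after its values were seen. From each list of other pathway genes up to 5 called genes with the smallest p were to be named. Some called genes of these lists are counted but not reported here by name. Levels per length used the longest GENCODE M21 transcript.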

Additional observations from a re-analysis of the deposited data

Results flagged for a closer look

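In 84 groups of 5 values (42 members, each in DMSO and in BPS), 7 held a library whose gap to its nearest neighbour was large for the group's range. Chance alone gives about 1 in 20 groups, or 4.2 of 84. Bmp2 in DMSO replicate 5 was at 0.642 CPM, where the other DMSO libraries were at 0.203 to 0.218. Bmp6 in BPS replicate 1 was at 10.5 CPM, below the 12.01 to 12.2 of the other BPS libraries. Tgfbr3 in DMSO replicate 5 was at 223.7 CPM, below the 238.2 to 243.5 of its group. Acvr1b in DMSO replicate 1 was at 28.3 CPM, above 26.9 to 27.2. Fst in DMSO replicate 4 was at 51.1 CPM, above 48.8 to 49.4 and still below every BPS library. Smad5 in DMSO replicate 4 was at 106.8 CPM, below 111.8 to 113.2. Id1 in BPS replicate 1 was at 31.7 CPM, above 26.4 to 27.9.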

How the results depend on the processing

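Over 119 alternative values of the 6 called members, 97 kept direction and call, 22 kept direction and lost the call, and none reversed. Inhba kept its call in all 20 alternatives (adjusted p up to 0.0474) and Fst in every one on genes. Calls of Tgfb2, Tgfbr3 and Ltbp4 held on leaving out any 1 library (adjusted p up to 0.0439, 0.0268 and 0.0393 by edgeR). Leaving out each library in turn gave 449 to 774 called genes in place of 712, 5 to 8 members in place of 6, and 11 to 16 other pathway genes in place of 16; the count of all genes moved over 1.5 times on leaving out DMSO replicate 2 (449), or from the BPS group replicate 2 (462), 3 (465) or 4 (462). Matching transcripts with their version left 72.12% of counts and 36 testable members, and called 328 genes and 9 other pathway genes. It called 4 members: Fst, Inhba and Tgfb2, and Smad5, which was not called in the main fit. Tgfbr3 was not testable with exact versions. Scaling by library size alone moved the share of calls that were higher from 62.8% to 45.9%.

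Same-numbered libraries showed little sign of pairing. Their deviations from the group means correlated at 0.1, 0.004, -0.067, 0.072 and -0.078 for numbers 1 to 5. Only numbers 1 and 4 correlated best with their own number. Low correlations over all tested genes, those with few counts among them, cannot exclude a pairing. With the replicate block 374 genes and 2 members (Fst and Inhba) were called, and the adjusted p by edgeR was 0.0674 for Tgfb2, 0.0504 for Tgfbr3, 0.0509 for Ltbp4 and 0.0661 for Smad2. Outside the members, the block also ended the call of Nbl1 (adjusted p = 0.0633 by edgeR).

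Of 678 alternative values of the 36 tested members that were not called, 25 changed sign. With exact versions the log2 fold change was 0.068 for Bmpr1a, 0.11 for Bmpr2, 0.051 for Smad3, 0.62 for Smad5 (adjusted p = 0.0389 by edgeR) and -0.028 for Smad6. With library size alone it was -0.0052 for Tgfb3, -0.000449 for Smad7 and -0.00292 for Id3. Leaving out each library in turn gave -0.00965 to 0.022 for Tgfb3, -0.0355 to 0.116 for Tgfbr1, -0.0256 to 0.076 for Acvr2a, -0.00536 to 0.0892 for Fstl3, -0.0273 to 0.0147 for Smad1, -0.0469 to 0.00682 for Smad3, -0.00651 to 0.0444 for Smad6, -0.00342 to 0.0285 for Smad7, -0.00512 to 0.0251 for Id3 and -0.0267 to 0.0109 for Skil. The cause was not tested.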
